A study of Mus musculus with 6 samples.

Results

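The core circadian clock genes of the liver were examined in mice given esculetin, a coumarin derivative, during a short high-fat diet (HFD). The 10 genes were Bmal1 (formerly Arntl), Clock, Per1, Per2, Per3, Cry1, Cry2, Nr1d1, Nr1d2 and Dbp, chosen by name for their place in the clock, and all 10 were found among the 55357 genes of the count table. Liver RNA came from wild-type male C57BL6J mice aged 8 to 9 weeks and kept under 12 h of light and 12 h of dark. Vehicle mice were gavaged with 2.5% Tween-80 and the others with esculetin for 7 days. Both groups ate a control diet with 10% of kcal from fat for 4 days and then an HFD with 60% for 3 days, so no group without HFD was sequenced here. There were 3 libraries per group, each a pool of 2 livers. The esculetin libraries carry 180 in their titles and 180 mg/kg/d in their protocol but 90 mg/kg/d in their treatment field, and no dose is therefore attached to the group below. The hour at which the livers were taken is not given in the sources used here.

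The circadian clock is a transcriptional loop that runs in nearly every cell. BMAL1 and CLOCK bind E-boxes as a dimer and switch on the Per and Cry genes, whose proteins return to the nucleus and block that dimer. A further loop passes through the nuclear receptors REV-ERB alpha and beta, encoded by Nr1d1 and Nr1d2, which repress Bmal1 and delay Cry1. In mouse liver the Bmal1 transcript peaks around the end of the night, Nr1d1 follows in the middle of the day, Dbp, Nr1d2 and Per3 come later in the day, Per1 and Per2 peak towards dusk and Cry1 peaks in the night. Feeding time, glucocorticoids and body temperature are known to set this cycle in the liver.

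The elements through which these genes act on one another can be read in short stretches next to their start sites. Windows from 250 bases before to 50 bases after each RefSeq transcript start were searched on both strands, and 9 of the 10 genes had windows, 13 in all. The stretches below are shown because they hold the E-box (CACGTG), its variant E'-box (CACGTT), the D-box bound by DBP (TTATGTAA or TTACGTAA) or the core of the site shared by REV-ERB and ROR receptors (TAGGTCA or TGGGTCA), which are in capitals. Each is written on the strand of its gene, and an E'-box on the other strand reads AACGTG.
Per1: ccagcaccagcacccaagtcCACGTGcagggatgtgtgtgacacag
Cry1: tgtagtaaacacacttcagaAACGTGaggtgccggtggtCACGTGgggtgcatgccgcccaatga
Nr1d1: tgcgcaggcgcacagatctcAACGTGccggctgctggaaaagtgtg
Per3: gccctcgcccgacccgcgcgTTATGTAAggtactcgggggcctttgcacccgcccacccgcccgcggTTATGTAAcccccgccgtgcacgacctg
Bmal1: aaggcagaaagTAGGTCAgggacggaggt

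On GRCm38.p6 these stretches lie at chr11:69098763-69098808 (plus strand, Per1), chr10:85185089-85185153 (minus strand, Cry1), chr11:98775380-98775425 (minus strand, Nr1d1), chr4:151044796-151044890 (minus strand, Per3) and chr7:113207530-113207558 (plus strand, Bmal1). The E-box of Per1 began 166 bases and that of Cry1 60 bases before the start site. Per3 carried a pair of D-boxes, 205 and 158 bases before its start. The Bmal1 element lay downstream of one annotated start, at base 31 of that transcript. Bmal1 and Per1 each also had a window at another start that held none of these elements. Of all 32851 RefSeq windows of this length, 7.15% held CACGTG, 4.68% held CACGTT, 1.06% held either D-box and 6.45% held either receptor core. Cry2 also held CACGTT, the windows of Clock, Nr1d2 and Dbp held none of these letters, and a cyclic AMP response element (TGACGTCA, in 1.79% of all windows) was found in no window of the 9 genes. A match of letters describes the sequence and does not show a bound site.

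The total counts of the 6 libraries lay between 27957713 and 34920922, with the esculetin libraries the deeper ones throughout. Values below are CPM, the counts of a gene relative to the library total after TMM scaling, and 3 counts corresponded to between 0.0865 and 0.109 CPM. Summed levels of 6 hepatocyte markers lay between 78975 and 82058 CPM with vehicle and between 75501 and 82647 CPM with esculetin. Those of the Kupffer cell, endothelial, stellate, cholangiocyte and blood cell lists also overlapped between the groups, and no listed marker was at 0 in any library. Of the 30 markers tested, 5 had an unadjusted p-value under 0.05 and 2 were called, where 11.9% and 3.13% of all genes were. Serpina1c (hepatocyte, log2 fold change 0.52), Des (stellate, 0.69) and Cd79a (lymphocyte, 1.12) were higher with esculetin, the latter pair past the fold threshold, and Cd68 (macrophage, -0.37) and Ptprc (leukocyte, -0.30) were lower. By list, log2 fold changes were above 0 for 5 of 6 hepatocyte, 1 of 6 Kupffer cell and macrophage, 2 of 5 endothelial, 2 of 5 stellate, 4 of 4 tested cholangiocyte and 3 of 4 tested lymphocyte and blood markers. The part of these cells in the clock values was not tested. In whole liver, fewer cells of a type and less RNA per cell cannot be told apart.

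The protein-coding genes counted lie on GRCm39 as follows. The activators are Bmal1 (ENSMUSG00000055116, chr7:112806152-112914735, plus strand) and Clock (ENSMUSG00000029238, chr5:76342860-76452846, minus strand). The repressors are Per1 (ENSMUSG00000020893, chr11:68986035-69002300, plus strand), Per2 (ENSMUSG00000055866, chr1:91343700-91387069, minus strand), Per3 (ENSMUSG00000028957, chr4:151081373-151129140, minus strand), Cry1 (ENSMUSG00000020038, chr10:84967560-85021252, minus strand) and Cry2 (ENSMUSG00000068742, chr2:92233894-92264474, minus strand). The receptors are Nr1d1 (ENSMUSG00000020889, chr11:98658752-98666188, minus strand) and Nr1d2 (ENSMUSG00000021775, chr14:4230545-4266624, plus strand), and the output factor is Dbp (ENSMUSG00000059824, chr7:45354512-45359627, plus strand). Counts cover the exons of each gene.

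The clock genes stood at very different levels, and Bmal1 was far below the rest. Per kilobase of merged exon, the mean over the 6 libraries was 17.2 CPM per kb for Nr1d2, 15.5 for Dbp and 9.25 for Nr1d1. It was 5.93 for Per2, 4.36 for Per1, 3.73 for Cry2, 3.42 for Per3, 2.79 for Cry1 and 2.06 for Clock. Bmal1 had 0.147 CPM per kb. In this order each gene's range over the libraries overlapped with that of the next, except that the lowest library of Clock (1.63 CPM per kb) was above the highest of Bmal1 (0.209). Merged exons include every annotated isoform, so these values are approximate for genes with long alternative ends.

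**Figure D1:**
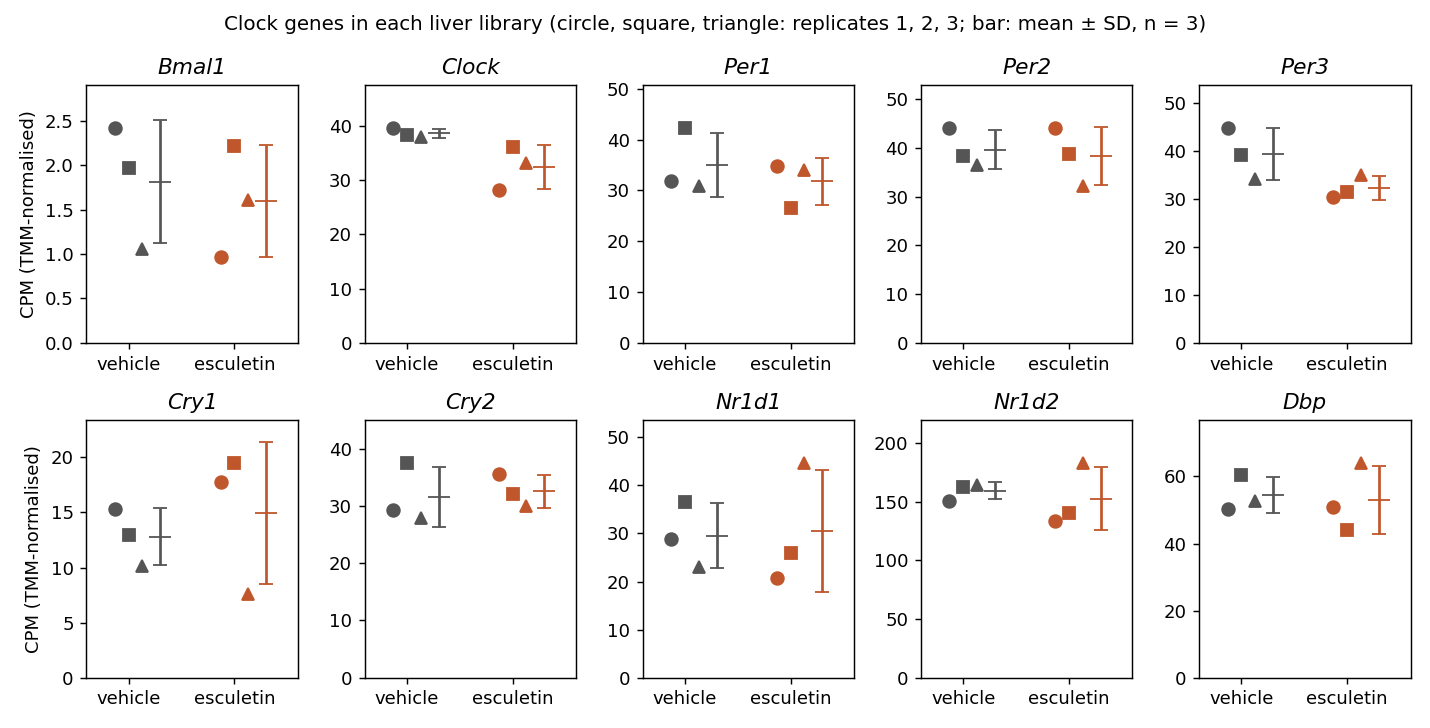
TMM-normalised CPM of the 10 clock genes in each liver library, with vehicle in grey and esculetin in orange; each point is a library of 2 mice and the bars give the mean ± SD of 3 libraries. The groups were separate for Clock alone, and esculetin replicate 3 (orange triangle) was the highest library for Nr1d1, Nr1d2 and Dbp and the lowest for Cry1 and Per2.

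In the comparison of esculetin with vehicle, none of the 10 clock genes passed the thresholds used here, a fold change over 1.5 together with p under 0.05 before adjustment. The study's methods give the same limits and do not state whether p was adjusted. Over all 14433 genes tested, 3.13% were called by this rule, so a count of 0 in 10 genes is close to the background. An unadjusted p-value under 0.05 was reached by 2 of the 10, Clock and Per3, both lower with esculetin, against 11.9% of all genes. After Benjamini-Hochberg adjustment of the edgeR p-values over all genes, 0 of the 10 and 0.0416% of all genes were under 0.05, and the smallest adjusted p among the clock genes was 0.355. With DESeq2 the count of clock genes called was also 0. The log2 fold changes ran from -0.29 to 0.22 with a median of -0.06, beside a median of -0.01 over all genes. Of the 10 genes, 3 were above and 7 below 0. The groups did not overlap in 1 gene, Clock, while this was so for 17.4% of all genes.

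Among the activators, Bmal1, the partner without which the loop stops, had few reads. Its counts were 71, 64 and 29 in vehicle replicates 1 to 3 and 31, 77 and 54 in the esculetin replicates. These were 2.42, 1.96 and 1.06 CPM with vehicle and 0.964, 2.22 and 1.61 CPM with esculetin. The groups overlapped fully, with vehicle replicate 3 and esculetin replicate 1 low in like measure. The log2 fold change was -0.18 with a 95% confidence interval from -1.03 to 0.67 (adjusted p = 0.894), so a change of 1.5-fold in either direction was not detectable at this depth and spread.

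Clock, which encodes the partner of BMAL1, had 39.6, 38.2 and 37.9 CPM with vehicle and 28.1, 36.1 and 33.0 CPM with esculetin. Every esculetin library was below every vehicle library, and esculetin replicate 1 was the lowest of all. The vehicle mean was 38.6 ± 0.895 CPM and the esculetin mean 32.4 ± 4.06 CPM (SD, n = 3). The log2 fold change was -0.25 (standard error 0.0998, unadjusted p = 0.0317, adjusted p = 0.370). The 3' part of Clock shares exon bases with Tmem165 on the opposite strand, 11.9% of its total. Tmem165 itself had a log2 fold change of 0.17 (adjusted p = 0.679).

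Among the repressors, the Per genes encode the proteins that carry the negative arm into the nucleus. Per3 had 44.8, 39.2 and 34.1 CPM with vehicle and 30.4, 31.5 and 35.0 CPM with esculetin. The groups met at their edges, since esculetin replicate 3 lay above vehicle replicate 3. The vehicle mean was 39.4 ± 5.35 CPM and the esculetin mean 32.3 ± 2.42 CPM (SD, n = 3). The log2 fold change was the lowest of the 10 genes (-0.29, standard error 0.11, unadjusted p = 0.0269, adjusted p = 0.355).

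Per1, which also answers acutely to glucocorticoids and cyclic AMP, had 31.8, 42.3 and 30.9 CPM with vehicle and 34.9, 26.5 and 34.1 CPM with esculetin. Vehicle replicate 2 was the highest and esculetin replicate 2 the lowest library, and the others lay between 30.9 and 34.9. The log2 fold change was -0.14 (95% confidence interval from -0.46 to 0.18, adjusted p = 0.753). Per2 had 44.1, 38.4 and 36.4 CPM with vehicle and 44.0, 38.8 and 32.1 CPM with esculetin, nearly the same values in both groups apart from the low esculetin replicate 3. Its log2 fold change was -0.05 (95% confidence interval from -0.32 to 0.22, adjusted p = 0.913).

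The cryptochromes Cry1 and Cry2 are the strongest repressors of the BMAL1 and CLOCK dimer. Cry1 had 15.4, 12.9 and 10.1 CPM with vehicle and 17.7, 19.5 and 7.55 CPM with esculetin. Esculetin replicates 1 and 2 were above every vehicle library while esculetin replicate 3 was below every one, so that Cry1 differed 2.58-fold between its highest and lowest library. Its log2 fold change was 0.22 (95% confidence interval from -0.45 to 0.89, adjusted p = 0.817). Cry2 had 29.2, 37.5 and 27.9 CPM with vehicle and 35.6, 32.0 and 29.9 CPM with esculetin, with the esculetin libraries inside the vehicle range. Its log2 fold change was 0.04 (95% confidence interval from -0.23 to 0.32, adjusted p = 0.932).

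Nr1d1, the receptor that represses Bmal1, had 28.8, 36.6 and 23.1 CPM with vehicle and 20.7, 26.0 and 44.7 CPM with esculetin. Both its lowest and its highest library were in the esculetin group, replicates 1 and 3, which differed 2.16-fold. The vehicle mean was 29.5 ± 6.76 CPM and the esculetin mean 30.5 ± 12.6 CPM (SD, n = 3). The log2 fold change was 0.05 (95% confidence interval from -0.53 to 0.63, adjusted p = 0.966). Exons of Nr1d1 overlap those of Thra on the opposite strand over 52.3% of their length. The strand setting of the counting is not given in the sources used here, and reads of this overlap cannot be assigned with certainty. Thra had 6.23, 8.65 and 6.45 CPM with vehicle and 7.24, 7.03 and 7.14 CPM with esculetin. Like Nr1d1 it was highest in replicate 2 among the vehicle libraries, while it was nearly level among the esculetin libraries, where Nr1d1 ranged most.

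Nr1d2, its paralog, had 151, 162 and 164 CPM with vehicle and 134, 141 and 183 CPM with esculetin. Its order among the esculetin libraries was that of Nr1d1, with replicate 3 highest and replicate 1 lowest, over a smaller range of 1.37-fold. The log2 fold change was -0.06 (95% confidence interval from -0.32 to 0.20, adjusted p = 0.879). Dbp encodes a PAR bZIP factor that passes the rhythm on through D-boxes to genes of drug and lipid metabolism. It had 50.1, 60.5 and 52.6 CPM with vehicle and 51.0, 44.1 and 64.1 CPM with esculetin, and esculetin replicate 3 was again the highest library. Its log2 fold change was -0.04 (95% confidence interval from -0.33 to 0.26, adjusted p = 0.948). Dbp shares 15.5% of its exon bases with Sphk2 on the opposite strand, which had a log2 fold change of 0.14 (adjusted p = 0.742).

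**Figure D2:**
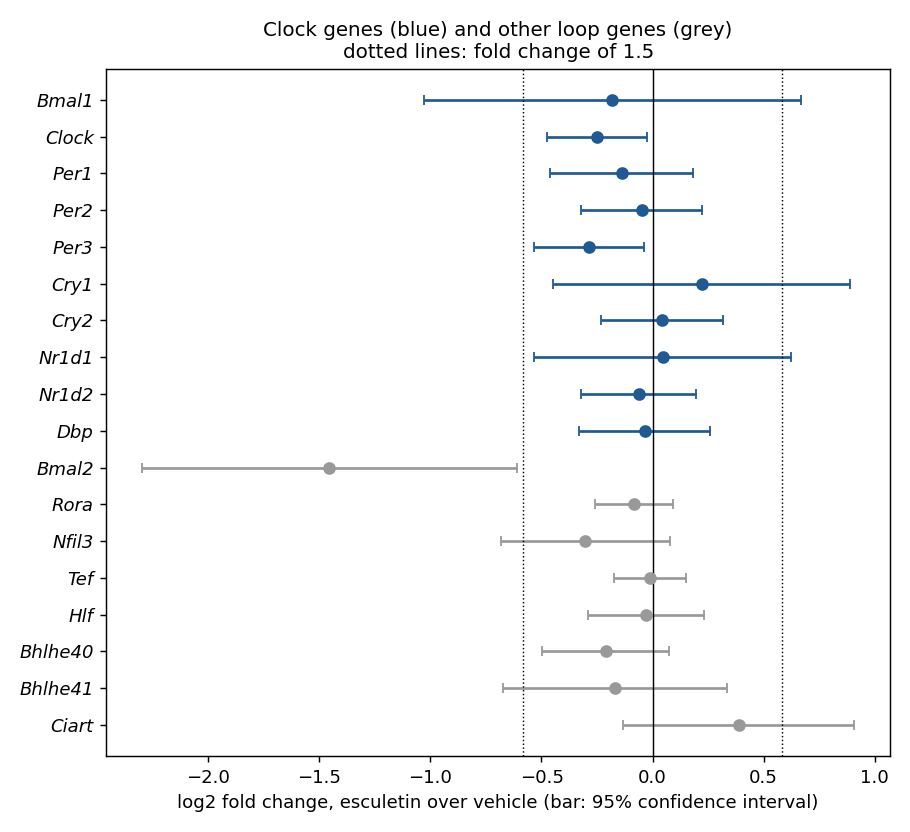
Log2 fold change of esculetin over vehicle with its 95% confidence interval for the 10 clock genes (blue) and 8 of the 9 other loop genes with enough counts (grey), among them Bmal2, the one that was called; dotted lines mark a fold change of 1.5. The intervals of 7 clock genes lie inside the dotted lines, those of Bmal1, Cry1 and Nr1d1 each cross at least 1 of them, and that of Bmal2 (-2.30 to -0.61) lies wholly below the lower line.

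The precision differed among the genes. For 7 of the 10 the confidence interval lay wholly within a fold change of 1.5, and for Bmal1, Cry1 and Nr1d1 it did not. These 3 also had the largest spread within groups, with a standard deviation of log2 CPM of 0.59 for Bmal1, 0.57 for Cry1 and 0.47 for Nr1d1. The median over all genes tested was 0.19, and 6 of the 10 clock genes lay above it.

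The count of 2 genes with an unadjusted p-value under 0.05 changed when libraries were left out, which also leaves fewer samples to test. It was 0 without vehicle replicate 1, without vehicle replicate 2 or without esculetin replicate 1. It was 1 without vehicle replicate 3 (Per3) or esculetin replicate 2 (Clock). Without esculetin replicate 3 it was 4, when Cry1 (log2 fold change 0.54, unadjusted p = 0.0101) and Nr1d2 (-0.21, unadjusted p = 0.0335) were added to Clock and Per3. With the replicate number fitted as a block the count was 1 (Clock). The fold changes moved less than the count. That of Clock lay between -0.33 and -0.23 on the log2 scale, except for -0.16 without esculetin replicate 1, and that of Per3 between -0.38 and -0.24, except for -0.18 without vehicle replicate 1. In none of these fits did a clock gene pass both thresholds.

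The libraries were also compared by the relative levels of their clock genes. The sampling hour is unknown and each library is a pool of 2 livers, so no phase can be assigned to a library. Over all 6 libraries, vehicle replicate 1 was the highest for 4 of the 10 members and esculetin replicate 3 for 3. Esculetin replicate 1 was the lowest for 5. Within the esculetin group, replicates 1 and 3 lay at opposite ends for several members. Against replicate 1, replicate 3 had 2.16-fold more Nr1d1, 1.67-fold more Bmal1, 1.37-fold more Nr1d2, 1.26-fold more Dbp, 1.18-fold more Clock and 1.15-fold more Per3. In the same comparison Cry1 was 2.35-fold, Per2 1.37-fold and Cry2 1.19-fold lower in replicate 3, while Per1 was 1.02-fold lower and thus nearly level. Bmal1 and Nr1d1, which peak at different times, were thus both higher in replicate 3, with Bmal1 at 31 and 54 counts in these libraries. Outside the 10 genes, Ciart, an E-box target that represses the activators, was 1.53-fold and Hlf, a PAR bZIP factor like Dbp, 1.35-fold lower in replicate 3, whereas Tef, the third of these factors, was 1.03-fold higher. These are differences between single libraries within one treatment and carry no test.

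**Figure D3:**
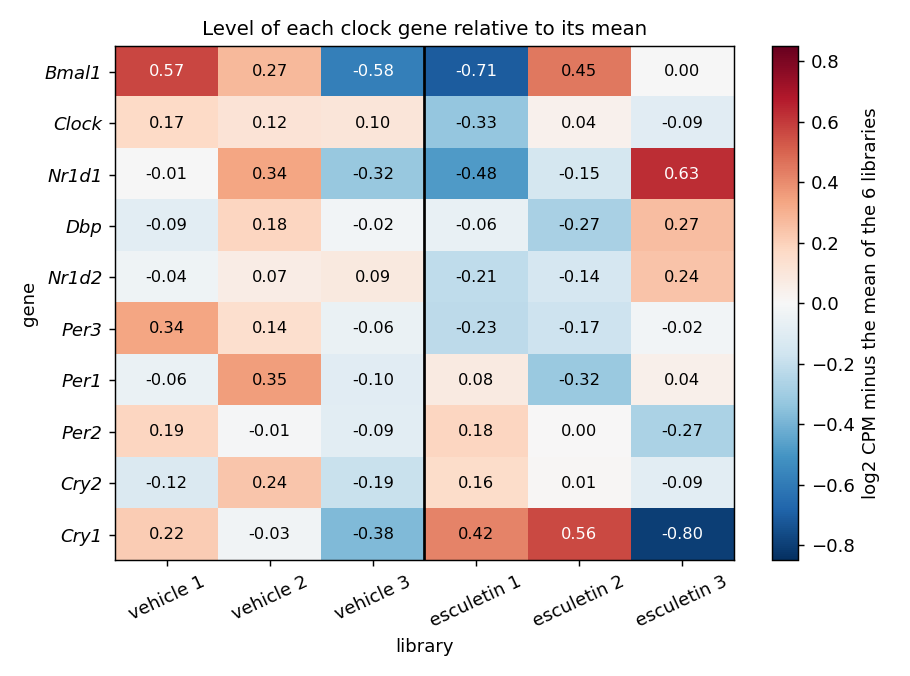
Log2 CPM of each clock gene minus its mean over the 6 libraries, with genes in rows and libraries in columns and the vehicle libraries left of the line. Esculetin replicate 3 combines the highest Nr1d1 (0.63) with the lowest Cry1 (-0.80), and esculetin replicate 1 combines low Nr1d1 (-0.48) and Bmal1 (-0.71) with high Cry1 (0.42).

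The ratio of Cry1 to Nr1d1 combined the members furthest below and furthest above their means in esculetin replicate 3. Its wide span therefore restates values given above. The ratio was compared between libraries only, not between the genes. It was 0.533, 0.353 and 0.439 in the vehicle libraries and 0.857, 0.750 and 0.169 in the esculetin libraries. The vehicle values lay inside the esculetin range, which spanned 5.08-fold. The ratio of Per2 to Nr1d1 has the same denominator and is not a separate reading. It was 1.53, 1.05 and 1.58 in the vehicle libraries and 2.13, 1.49 and 0.718 in the esculetin libraries. Esculetin replicate 2 lay inside the vehicle range in this ratio, but above it in the ratio of Cry1 to Nr1d1. The ratio of Bmal1 to Dbp did not follow the treatment, with 0.0482, 0.0325 and 0.0201 in the vehicle libraries and 0.0189, 0.0503 and 0.0252 in the esculetin libraries.

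A pair of indices placed each library by its clock genes alone. The antiphase index is the mean log2 CPM of Nr1d1, Nr1d2, Dbp and Per3 minus that of Bmal1 and Clock, and falls when the loop nears the Bmal1 peak. It was 2.50, 2.80 and 2.97 in the vehicle libraries and 3.08, 2.39 and 3.14 in the esculetin libraries. The evening index is the mean of Per1 and Per2 minus that of Nr1d1 and Dbp. It was -0.02, -0.22 and -0.05 in the vehicle libraries and 0.27, -0.08 and -0.69 in the esculetin libraries. The groups overlapped in both, and the esculetin libraries lay on both sides of the vehicle libraries in the evening index.

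**Figure D4:**
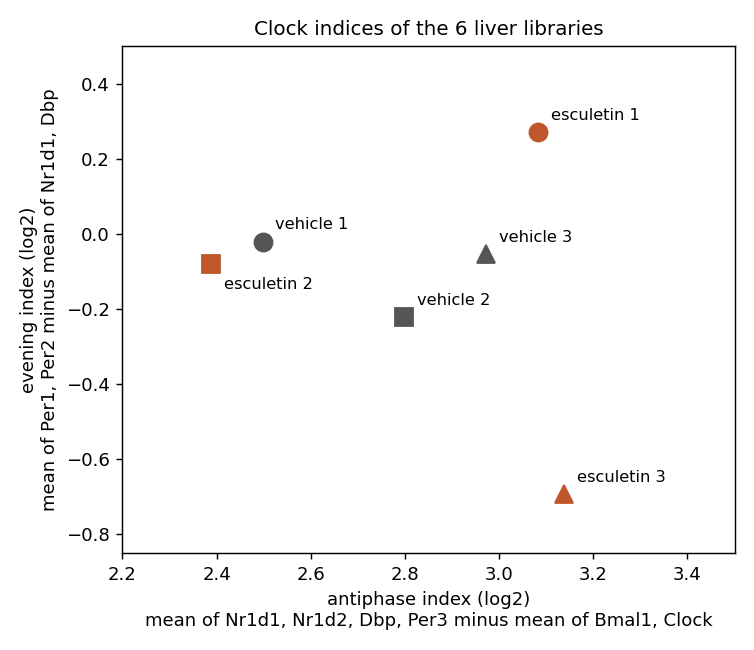
Antiphase index (horizontal) and evening index (vertical) of the 6 libraries, in log2 units, with vehicle in grey and esculetin in orange. The vehicle libraries stay between -0.22 and -0.02 in the evening index, and esculetin replicates 1 and 3 stand above and below them at 0.27 and -0.69.

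The antiphase index averaged 2.76 ± 0.24 in the vehicle and 2.87 ± 0.42 in the esculetin libraries, and the evening index -0.10 ± 0.11 and -0.17 ± 0.49 (SD, n = 3). Both differences, 0.11 and -0.07, were smaller than the spread between replicates (pooled SD 0.34 and 0.35), and leaving out 1 library turned the sign of each. Nr1d1 and Dbp enter both indices, so these are not separate readings, and Bmal1 brings the counting error of at most 77 counts into the first. A shift shared by the esculetin libraries was not detectable against this spread, and no phase in hours was estimated, since the sampling time is unknown.

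Of 11 further loop genes, 9 had enough counts to be tested and 1 was called, Bmal2, a paralog of Bmal1, where 3.13% of all genes were called. It had 34, 32 and 27 counts with vehicle and 10, 18 and 10 with esculetin, so the groups did not overlap, as for 17.4% of all genes. Its log2 fold change was -1.46 (standard error 0.38, unadjusted p = 0.00335, adjusted p = 0.204), and the direction and the call were kept without each library in turn. Npas2, which can stand in for Clock, had between 0 and 6 counts per library, and Rorb had 2 counts in all, both in esculetin replicate 3. Rora, which encodes a receptor that opposes REV-ERB at Bmal1, had a log2 fold change of -0.08. Nfil3, the repressor that competes with DBP at D-boxes, had 16.5 CPM with vehicle and 13.4 with esculetin on average (log2 fold change -0.30, unadjusted p = 0.106). Ciart had 15.0 and 19.6 CPM (0.39, unadjusted p = 0.128), and it was called without esculetin replicate 2 (0.59). The list had a median log2 fold change of -0.08.

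Among 14 genes whose products modify clock proteins, 0 were called by edgeR or DESeq2 and 2 had an unadjusted p-value under 0.05, where 11.9% of all genes did. Btrc, a ubiquitin ligase component that marks PER proteins for decay, had 13.6 CPM with vehicle and 10.1 with esculetin (log2 fold change -0.43, unadjusted p = 0.00564, adjusted p = 0.233). Usp2, a deubiquitinase, had 41.9 and 53.3 CPM (0.35, unadjusted p = 0.00830, adjusted p = 0.254). The casein kinase genes Csnk1d and Csnk1e, whose products phosphorylate PER, had log2 fold changes of 0.02 and -0.07. The median of the list was -0.02.

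Of 16 rhythmic output genes of the liver, 1 was called and 3 had an unadjusted p-value under 0.05, beside 3.13% and 11.9% of all genes, so both counts are near the background. Elovl3, a fatty acid elongase, had 73.4 CPM with vehicle and 45.3 with esculetin (log2 fold change -0.70, adjusted p = 0.203). It was not called without esculetin replicate 3, when the count of called output genes was 0. That count was 2 without vehicle replicate 1 and 3 without vehicle replicate 3. Por, the reductase that serves the cytochrome P450 enzymes, had 203 and 290 CPM (0.51, unadjusted p = 0.000438, adjusted p = 0.132). Avpr1a, a vasopressin receptor, had 17.1 and 12.5 CPM (-0.46, unadjusted p = 0.000771, adjusted p = 0.136). Of the genes that lie closest to the loop, Wee1, a cell cycle kinase, had 17.6 and 19.5 CPM (0.15, adjusted p = 0.770), and Noct, which encodes nocturnin, had 98.2 and 77.2 CPM (-0.35, adjusted p = 0.574). The list had 10 genes above and 6 below 0, with a median of 0.12.

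Genes that report the cues known to set the liver clock were compared beside the members. In the glucocorticoid list 3 of 7 tested genes were called, in both directions, beside 3.13% of all genes. The lists were chosen with earlier results of these data known, so counts above that share cannot be read as an enrichment. Fkbp5 had 32.1 CPM with vehicle and 70.8 with esculetin (log2 fold change 1.14, adjusted p = 0.114), and Mt1, a metallothionein that metals also induce, had 4.15 and 16.7 CPM (2.01, adjusted p = 0.242). The Mt1 counts were 1133, 191 and 316 in the esculetin libraries, so replicate 1 carried most of this difference, against 90, 154 and 128 with vehicle. Sgk1 had 42.5 and 24.9 CPM (-0.77, adjusted p = 0.173). Tat, a liver enzyme of the same list, had a log2 fold change of 0.03, and Per1 among the clock genes had -0.14. Of 10 feeding and insulin genes 2 were called, against the same 3.13%, Angptl4 (0.94, adjusted p = 0.114) and G6pc1 (-0.92, adjusted p = 0.204). Among 9 temperature genes 0 were called and Hspa8 alone had an unadjusted p-value under 0.05 (0.33, unadjusted p = 0.0158), which 11.9% of all genes reached, and the cold-induced Cirbp and Rbm3 had 0.06 and 0.08. Of 8 immediate early genes 0 were called, with an unadjusted p-value under 0.05 for Dusp1 (-0.56, unadjusted p = 0.000219), so these counts of 1 in 9 and 1 in 8 are near that background. Esculetin replicate 3, which stood apart in several clock genes, also did so in genes of the feeding and output lists, named here after their values were seen. Fasn, which encodes fatty acid synthase, had 461, 405 and 150 CPM in esculetin replicates 1 to 3, and Srebf1, which encodes a lipogenic transcription factor, had 236, 255 and 135 CPM. Noct had 95.2, 82.8 and 53.7 CPM, and Klf10 had 11.8, 13.5 and 24.4 CPM. Replicate 3 was the lowest of all 6 libraries for Fasn, Srebf1 and Noct and the highest for Klf10. The part of these cues in the clock values was not tested.

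Likeness to Bmal1 was measured as the root mean square difference of log2 CPM, centred over the 6 libraries, among genes with at least 5 CPM. The nearest genes were Gm32063 (0.18), Spc24 (0.18), Acacb (0.20), Tubb2a (0.20) and Etnppl (0.20). Dbp and Per1 ranged over 0.54 and 0.67 log2 units in the 6 libraries, too little for such a comparison. Given the few counts of Bmal1, this order is a description of these 6 libraries.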

How the data were processed

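The authors aligned 150-bp paired-end reads to GRCm39 with HISAT2 2.2.1 and counted them per gene with featureCounts. The deposited values are whole-number counts without normalization. The submitters' processing notes also list mm10. The annotation release, strandedness and treatment of multi-mapping reads are not given in the sources used here. Libraries were assigned by dose and number in titles and column names, and whether same-group pools came from separate cages or days is not stated, so p-values measure the spread between these libraries.

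Gene symbols and exon lengths came from GENCODE for GRCm39, which held 54749 of 55357 identifiers. Promoter windows came from RefSeq (GRCm38.p6). Genes were kept with filterByExpr, scaled by TMM and tested in R 4.3.3 by edgeR 4.0.16 (glmQLFit, glmQLFTest). Log2 CPM used a prior count of 2. Standard errors are the log2 fold change over the square root of F. The study's methods name limma, which was an alternative (limma-voom, limma 3.58.1), with DESeq2 1.42.0, other scalings, other filters, each library left out and a replicate block. The test was tested on simulated data. Adjusted p-values are Benjamini-Hochberg values over all 14433 genes tested. Between replicates the chi-square of counts was 26.7 per gene or more, far above sampling noise, and every library was kept as its own sample. The members, lists and indices were chosen with earlier results of these data known. Named genes were all members, genes of the lists at an unadjusted p-value under 0.05, and the 5 genes most like Bmal1, Dbp or Per1 where these ranged over more than 1 log2 unit. Further list genes were named for their role after their values were seen. Some genes of the lists entered the counts and medians but are not reported here by name.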

Additional observations from a re-analysis of the deposited data

How the results depend on the processing

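No clock gene was called under any alternative test, scaling, filter or left-out library, and with a fold change over 1.2 as threshold 1 was (Per3). The count of all called genes was 452, and it was 776 without the filter, 1270 with a fold change over 1.2 and 217 with a fold change over 2. Genes with an adjusted p-value under 0.05 numbered 6, against 193 with DESeq2 and 477 without the filter, and 2 to 45 when 1 library was left out (2 without vehicle replicate 2, 45 without vehicle replicate 1 and 15 without vehicle replicate 3). Clock genes at an unadjusted p-value under 0.05 numbered 2, and 0 to 4 when 1 library was left out. Called loop genes numbered 1, and 1 to 2 when 1 library was left out. Called output genes numbered 1, and 2 with limma-voom and 2 without the filter (Elovl3 and Lpin1 in both), and 0 to 3 when 1 library was left out (3 without vehicle replicate 3, 2 without vehicle replicate 1, 0 without esculetin replicate 3). The cause was not tested.

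Clock and Per3 kept their direction throughout. Leaving out 1 library turned the sign of the others, with log2 fold changes from -0.49 to 0.077 for Bmal1, -0.22 to 0.023 for Per1, -0.16 to 0.064 for Per2, -0.020 to 0.54 for Cry1, -0.037 to 0.19 for Cry2, -0.34 to 0.26 for Nr1d1, -0.21 to 0.026 for Nr1d2 and -0.19 to 0.082 for Dbp. That of Nr1d1 was -0.012 with limma-voom. Deviations of same-numbered libraries correlated by -0.069, -0.011 and 0.0027 over all genes tested, so no broad pairing by replicate number was seen. These values cannot show whether same-numbered libraries were handled together. With the replicate block, 15 genes had an adjusted p-value under 0.05, 1 clock gene (Clock) an unadjusted one, 2 output genes were called, and Nr1d1 had -0.011. Without 1 library the antiphase difference ran from -0.020 to 0.35 and the evening difference from -0.29 to 0.19, so both turned sign, by less than 1 pooled SD. The lowest antiphase and highest evening values came without esculetin replicate 3, the highest antiphase value without esculetin replicate 2 and the lowest evening value without esculetin replicate 1. Depth limits Bmal1, Bmal2 and Npas2.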
